A study of Homo sapiens with 6 samples.

Results

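The 10 genes described here encode carriers that move amino acids or taurine across the plasma membrane. They were chosen by symbol (SLC7A11, SLC3A2, SLC7A5, SLC7A1, SLC7A6, SLC1A4, SLC1A5, SLC38A1, SLC38A2 and SLC6A6), and all 10 were found among the 23827 genes of the deposited table. The cells were A549, a line derived from a human lung adenocarcinoma, kept for 24 h with 20 mM lactic acid in their medium or, as the control, with buffered saline (PBS) in equal amount, and their poly(A)-selected RNA was sequenced. Both groups had 3 libraries that the labels call biological replicates, all of the 1 line, and acid or lactate given alone was not analysed here. The title of the series names lactic acid, CHAC1 and ferroptosis, a cell death driven by lipid peroxidation, which cystine uptake is known to hold back.

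Amino acids cross the surface membrane on carriers that either exchange one amino acid for another or use the sodium gradient to concentrate it. The SLC7 light chains SLC7A5, SLC7A6 and SLC7A11 are exchangers that reach the surface only when bound to the heavy chain SLC3A2. Some trade amino acids such as glutamine, which sodium-driven carriers of the SLC38 family load into the cell, for leucine and other essential ones. Many of these genes are known targets of ATF4, the transcription factor that is translated when cells lack amino acids, and cystine brought in by SLC7A11 feeds glutathione synthesis.

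The libraries held 33492831 to 42938870 counts in genes. Of the epithelial markers, the keratins KRT8, KRT18 and KRT7 were abundant, whereas EPCAM stood at 1.62 ± 0.434 CPM (counts scaled to library size) in lactic acid libraries and 3.29 ± 0.501 CPM in PBS libraries (SD, n = 3 each). The reductases and dehydrogenases AKR1B10, AKR1C1, NQO1 and ALDH3A1, for which A549 is known, summed to 2314 to 2418 CPM in lactic acid libraries and 1832 to 1918 CPM in PBS libraries, while PTPRC, CD3E and LYZ of immune cells and all 3 endothelial markers had at most 10 counts in any library. With CD68, the 4 immune markers summed to 29.6 to 32.6 CPM in lactic acid libraries and 37.5 to 43.0 CPM in PBS libraries. The 4 fibroblast markers were counted, summing to 80.2 to 87.6 CPM in lactic acid libraries and 112 to 125 CPM in PBS libraries, mostly COL1A1. The 6 epithelial markers summed to 4057 to 4156 CPM in lactic acid libraries and 4762 to 5039 CPM in PBS libraries. The part of these shifts in the results was not tested.

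Carrier transcripts were higher after lactic acid in 9 of 10 cases, and 0 fell. The 10 genes were chosen with earlier results of these data known. The shares over all genes are therefore given for reference and are no test of the list. A gene is said to rise or fall where the quasi-likelihood test of edgeR gave a Benjamini-Hochberg adjusted p under 0.05 over the 15474 genes tested. By that rule 18.7% of all tested genes rose (2892), 16.7% fell (2584) and 35.4% changed in either direction; on log2(FPKM + 1), with limma and the deposited FPKM (fragments scaled to transcript length and library size), 1803 rose and 2533 fell. In such bulk samples fewer cells of a kind and less RNA per cell cannot be told apart. The rises ran from 1.16-fold for SLC7A11 to 1.83-fold for SLC6A6, and 3 genes passed 1.5-fold (SLC38A1, SLC38A2 and SLC6A6), while 3.52% of all tested genes rose by at least that factor. The median log2 fold change was 0.44 over the 10 carriers and 0.0024 over all genes. Lactic acid and PBS libraries did not overlap for 9 of the 10 carriers, nor for 47.5% of all tested genes. Together the 10 genes took 0.345%, 0.348% and 0.356% of the counts of the lactic acid libraries, against 0.245%, 0.242% and 0.251% in the PBS libraries.

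**Figure D1:**
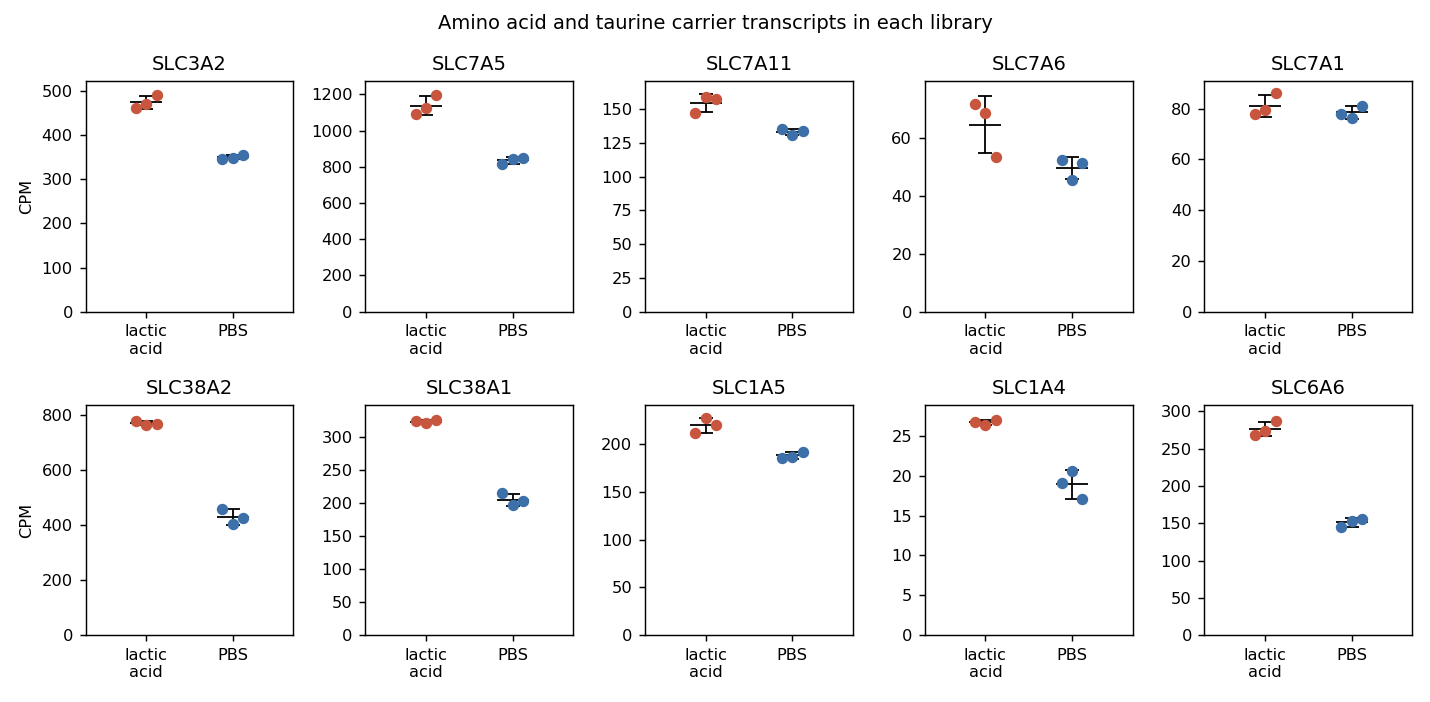
CPM (vertical axes, each from 0) of the 10 carriers in the lactic acid libraries (red, left) and the PBS libraries (blue, right). Points are libraries and bars are mean ± SD (n = 3). The groups are apart for every gene but SLC7A1, and the lowest lactic acid value of SLC7A6, 53.4 CPM, lies just above the highest PBS value, 52.4 CPM.

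Promoter sequence was available for 8 of the carriers, all but SLC7A11 and SLC6A6, as 14 windows of 300 bases (250 before to 50 after a transcript start, RefSeq, GRCh38.p14). The C/EBP-ATF response element, to which ATF4 is known to bind, was searched as TGATGNAA on both strands. It was found in 1 window each of 5 carriers (SLC1A4, SLC3A2, SLC38A1, SLC7A1 and SLC1A5), while 3.62% of all 35116 windows and 4.46% of 27305 genes held it. The 5 matches are shown so that the element and its surroundings can be compared, each in 30 bases with the matched letters in capitals and in the direction of the motif.
SLC1A4 (chr2:64989381-64989410, minus strand): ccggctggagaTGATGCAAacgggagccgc
SLC3A2 (chr11:62881719-62881748, minus strand): ggagcTGATGTAAggagtcctgcacattac
SLC38A1 (chr12:46266502-46266531, minus strand): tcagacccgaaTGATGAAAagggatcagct
SLC7A1 (chr13:29595663-29595692, minus strand): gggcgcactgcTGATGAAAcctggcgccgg
SLC1A5 (chr19:46784893-46784922, minus strand): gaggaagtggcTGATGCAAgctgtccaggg
Counted with the first transcribed base as 1, the matches began at −7 in SLC1A4, 38 in SLC3A2, −4 in SLC38A1, 8 in SLC7A1 and −97 in SLC1A5. SLC1A5 and SLC3A2 have 3 windows each and SLC1A4 and SLC38A1 have 2 each, and the files do not say which start was in use. SLC1A4 and SLC1A5 hold the same core, TGATGCAA, and SLC38A1 and SLC7A1 share the core TGATGAAA. The windows of SLC38A2, SLC7A5 and SLC7A6 do not hold these letters.

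Other elements were searched in the same windows. The core of the antioxidant response element, bound by NRF2 and searched as TGACNNNGC on both strands, was in 5 of the 8 carriers (SLC3A2, SLC7A1, SLC7A6, SLC7A5 and SLC1A5) and in 16.1% of all genes. By window it was in 5 of the 14, and in 13.3% of all windows. The match of SLC3A2 and that of SLC7A5 are shown because their products form 1 exchanger.
SLC3A2 (chr11:62881652-62881681, plus strand): cgagggtgggTGACTCAGCgtcctccttcc
SLC7A5 (chr16:87869490-87869519, minus strand): gcggggttccTGACGCAGCtgcgggcggcg
The E-box CACGTG, bound by MYC among others, was in the windows of SLC7A5 and SLC1A5, 2 of the 8 carriers, and in 8.77% of all genes. By window it was in 2 of the 14, and in 7.26% of all windows.

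The heavy chain and its main leucine-exchanging light chain rose by almost the same factor. SLC3A2, the heavy chain that carries light chains to the surface (chromosome 11, 62856102 to 62888875, plus strand, GRCh38), had 462, 471 and 490 CPM in lactic acid libraries, against 347, 348 and 356 CPM in PBS libraries. Every lactic acid library was above every PBS library. The rise was 1.35-fold (log2 fold change 0.44, SE 0.032, edgeR adjusted p = 1.38e-06). SLC7A5, the light chain that takes up leucine, tryptophan and other large neutral amino acids (chromosome 16, 87830023 to 87869488, minus strand), had 1093, 1123 and 1194 CPM in lactic acid libraries, against 815, 841 and 850 CPM in PBS libraries. The groups were again apart, with a rise of 1.36-fold (log2 fold change 0.44, SE 0.034, edgeR adjusted p = 2.08e-06).

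Levels of different genes can be set side by side only per length, so the deposited FPKM were used for the ratio of the partners. The FPKM of SLC7A5 over that of SLC3A2 was 1.09, 1.08 and 1.11 in lactic acid libraries, against 1.08, 1.10 and 1.09 in PBS libraries. The libraries of the groups were intermingled, and the log2 ratio differed by 0.0055 (lactic acid minus PBS; exact permutation test over libraries, two-sided, p = 0.8). With 3 libraries against 3 this test cannot go below 0.1. SLC7A5 has the partial copies SLC7A5P1 and SLC7A5P2, which hold 3.1% and 5.43% of the 31-base words of its transcripts and are not used here. How reads with more than 1 match were counted is not given in the sources used here.

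SLC7A11, the light chain that imports cystine in exchange for glutamate, showed the smallest rise of the 9. It lies on chromosome 4 (138164097 to 138242349, minus strand) and had 147, 159 and 157 CPM in lactic acid libraries, against 135, 131 and 134 CPM in PBS libraries. The lowest lactic acid library stood above the highest PBS library. The log2 fold change was 0.21 (SE 0.040, edgeR adjusted p = 0.00142), and 21% of all tested genes had a larger one. Its FPKM relative to SLC3A2 was 0.0691, 0.0721 and 0.0691 in lactic acid libraries, against 0.0845, 0.0807 and 0.0804 in PBS libraries. All 3 lactic acid ratios were below all PBS ratios, a log2 difference of −0.22 (two-sided exact permutation p = 0.1, the smallest possible; 0.167 after adjustment over the 5 ratios computed). An antisense gene, not used here, shares 865 of the 9645 exon bases of SLC7A11.

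SLC7A6, the light chain that exchanges arginine and other cationic amino acids for neutral ones with sodium, gave the least even values of the 10 in lactic acid libraries. It lies on chromosome 16 (68264516 to 68301823, plus strand) and had 71.9, 68.6 and 53.4 CPM in lactic acid libraries, against 52.4, 45.4 and 51.3 CPM in PBS libraries. The third lactic acid library was near the PBS level, the other lactic acid libraries well above it. The log2 fold change was 0.38 (SE 0.093, edgeR adjusted p = 0.00792), and it was 0.49 without the third lactic acid library. The call was lost on log2(FPKM + 1) when no gene was filtered out (limma adjusted p = 0.092). Relative to SLC3A2, its FPKM differed by −0.047 on the log2 scale (lactic acid minus PBS; two-sided exact permutation p = 0.9).

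SLC7A6OS, a protein-coding gene on the opposite strand, shares 3371 of the 7588 exon bases of SLC7A6. It had 19.6, 21.0 and 32.9 CPM in lactic acid libraries, against 22.5, 23.5 and 22.2 CPM in PBS libraries. The third lactic acid library was thus the highest of the 6 for SLC7A6OS and the lowest of its group for SLC7A6. The 2 genes together had 91.6, 89.6 and 86.3 CPM in lactic acid libraries, against 74.8, 68.9 and 73.5 CPM in PBS libraries, and the sum was clearly apart between the groups. In lactic acid libraries the SD was 15.3% of the mean for SLC7A6 and 29.7% for SLC7A6OS, but 2.99% for the sum. In PBS libraries it was 7.54% for SLC7A6, 2.98% for SLC7A6OS and 4.31% for the sum. The sum rose with a log2 fold change of 0.30 (SE 0.041, edgeR adjusted p = 0.000181). The strand setting of the counting is not given in the sources used here, so reads of the shared stretch cannot be assigned to either gene with certainty.

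**Figure D2:**
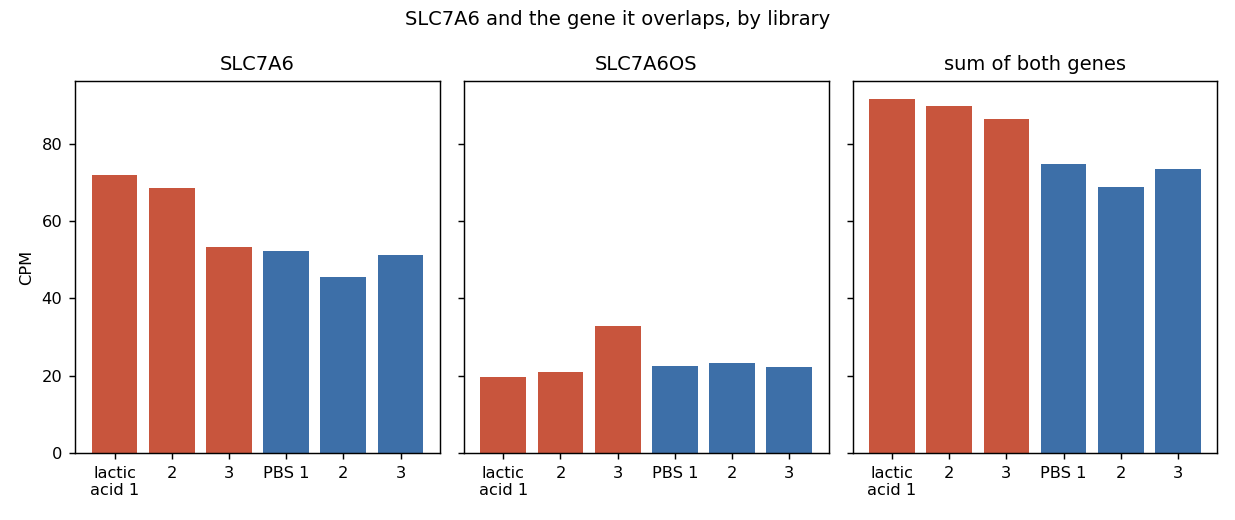
CPM (vertical axis, from 0) of SLC7A6, of SLC7A6OS on the opposite strand, and of both added, in each lactic acid library (red) and each PBS library (blue); bars are single libraries. The third lactic acid library has 53.4 CPM of SLC7A6 and 32.9 CPM of SLC7A6OS, while its sum, 86.3 CPM, lies with those of the other lactic acid libraries.

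SLC7A1, the cationic amino acid carrier that needs no heavy chain and imports arginine and lysine, was the carrier without a call. It lies on chromosome 13 (29509410 to 29595688, minus strand) and had 77.7, 79.3 and 86.1 CPM in lactic acid libraries, against 77.9, 76.4 and 81.3 CPM in PBS libraries. The groups overlapped. The log2 fold change was 0.045 (SE 0.045, edgeR adjusted p = 0.473), and without the third lactic acid library it was −0.0052.

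The sodium-coupled neutral amino acid carriers SLC38A2 and SLC38A1, which concentrate glutamine, alanine and serine and whose transport is known to slow in acid medium, had larger fold changes than the exchangers. SLC38A2 (chromosome 12, 46358189 to 46372867, minus strand) had 777, 764 and 766 CPM in lactic acid libraries, against 459, 404 and 424 CPM in PBS libraries. The lactic acid libraries were close to each other and far above the PBS libraries. The rise was 1.79-fold (log2 fold change 0.84, SE 0.041, edgeR adjusted p = 6.3e-08), and 2.55% of tested genes had a larger log2 fold change. SLC38A1, its neighbour on chromosome 12 (46183063 to 46270017, minus strand), had 324, 321 and 326 CPM in lactic acid libraries, against 215, 197 and 204 CPM in PBS libraries. The groups did not overlap, and the rise was 1.57-fold (log2 fold change 0.66, SE 0.037, edgeR adjusted p = 1.98e-07).

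SLC38A2 had the larger fold change of the pair. The FPKM of SLC38A2 over that of SLC38A1 was 3.99, 3.96 and 3.90 in lactic acid libraries, against 3.61, 3.33 and 3.47 in PBS libraries, and the groups did not overlap. The log2 ratio was higher by 0.19 in lactic acid (two-sided exact permutation p = 0.1, the smallest possible; 0.167 adjusted over the 5 ratios).

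The neutral amino acid exchangers of the SLC1 family rose as well. SLC1A5, the main glutamine exchanger of many tumour cells (chromosome 19, 46774883 to 46788594, minus strand), had 211, 227 and 219 CPM in lactic acid libraries, against 185, 187 and 192 CPM in PBS libraries. All lactic acid libraries were higher, and the rise was 1.17-fold (log2 fold change 0.22, SE 0.037, edgeR adjusted p = 0.000676). SLC1A4, an exchanger of serine, alanine and cysteine (chromosome 2, 64988477 to 65023865, plus strand), had 26.7, 26.3 and 27.0 CPM in lactic acid libraries, against 19.1, 20.6 and 17.0 CPM in PBS libraries. This was the least abundant carrier, with 649 to 694 counts per PBS library, and its rise was 1.41-fold (log2 fold change 0.50, SE 0.072, edgeR adjusted p = 0.000258). The FPKM of SLC1A4 over that of SLC1A5 was 0.0772, 0.0724 and 0.0750 in lactic acid libraries, against 0.0643, 0.0688 and 0.0554 in PBS libraries. The ratios of the groups did not overlap, with a log2 difference of 0.26 (two-sided exact permutation p = 0.1, 0.167 adjusted). An antisense gene, not used here, shares 780 of the 3332 exon bases of SLC1A5.

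The largest rise of the 10 was that of SLC6A6, the sodium- and chloride-coupled carrier of taurine, a sulfonic acid that cells hold as an osmolyte. SLC6A6 (chromosome 3, 14402576 to 14489349, plus strand) had 269, 273 and 287 CPM in lactic acid libraries, against 145, 153 and 156 CPM in PBS libraries. Every lactic acid library stood far above every PBS library. The rise was 1.83-fold (log2 fold change 0.87, SE 0.040, edgeR adjusted p = 4.41e-08), and 2.37% of tested genes had a larger log2 fold change. GRIP2, which shares 239 exon bases on the opposite strand, had 26 to 32 counts in lactic acid libraries and 30 to 54 in PBS libraries. With the counts of both genes added, the log2 fold change was 0.86.

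Per length, the carriers spanned a wide range of levels, and their order was nearly the same in both groups. In lactic acid cells SLC7A5 was highest at 232 ± 10.8 FPKM, followed by SLC3A2 at 212 ± 6.97, SLC38A2 at 149 ± 1.02, SLC1A5 at 72.4 ± 2.19, SLC6A6 at 39.9 ± 1.54 and SLC38A1 at 37.7 ± 0.322 (mean ± SD, n = 3). SLC7A11 stood at 14.8 ± 0.609 FPKM, SLC7A1 at 10.2 ± 0.566, SLC7A6 at 9.99 ± 1.38 and SLC1A4 at 5.42 ± 0.0471. Neighbours in this order were apart in every library except SLC7A1 and SLC7A6, whose values overlapped. In PBS cells the order was SLC7A5 (175 ± 5.61 FPKM), SLC3A2 (160.3 ± 4.56), SLC38A2 (86.1 ± 5.61), SLC1A5 (62.8 ± 1.61), SLC38A1 (24.8 ± 0.631), SLC6A6 (22.3 ± 1.15), SLC7A11 (13.1 ± 0.166), SLC7A1 (10.1 ± 0.388), SLC7A6 (7.78 ± 0.602) and SLC1A4 (3.94 ± 0.375), with all neighbours apart. SLC6A6 was thus above SLC38A1 in lactic acid libraries and below it in PBS libraries. Only 1.58% of tested genes with Ensembl identifiers had a higher mean FPKM than SLC7A5, and 1.71% than SLC3A2, while 62.3% exceeded SLC1A4.

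**Figure D3:**
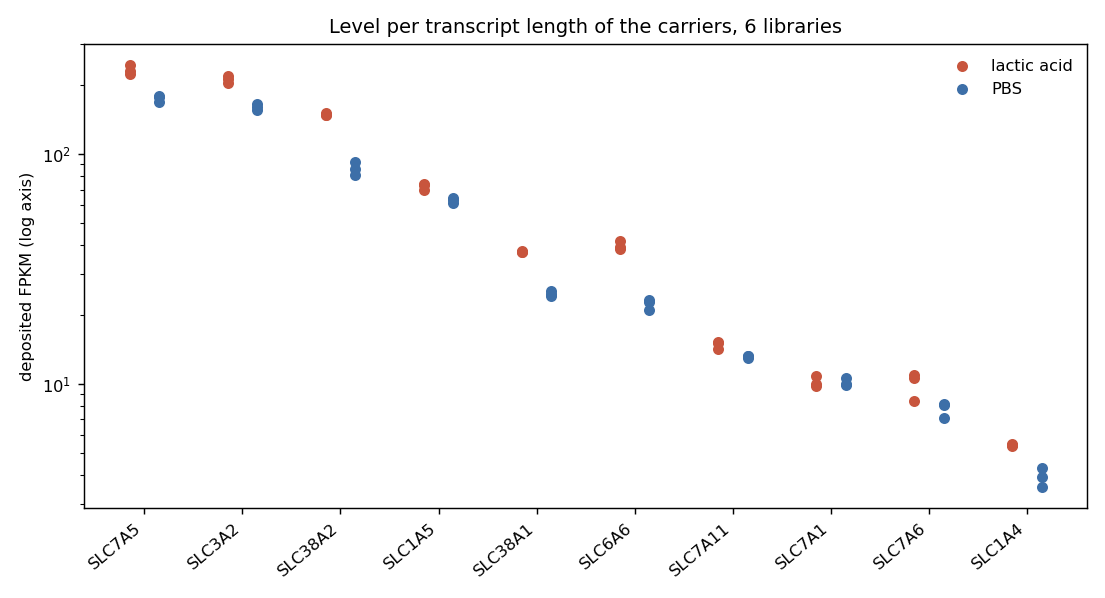
Deposited FPKM (log axis) of the 10 carriers in each lactic acid library (red, left of each pair) and each PBS library (blue, right), ordered by the PBS mean. Levels run from 5.42 FPKM for SLC1A4 to 232 FPKM for SLC7A5 on average in lactic acid, and from 3.94 to 175 FPKM in PBS.

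Other amino acid carriers of the surface were described from the same test. Of 37 such genes listed, 9 had no count in any library and 15 had enough counts to be tested. A gene high in 1 group alone could pass that filter. Of the 15, 4 rose and 1 fell, with a median log2 fold change of 0.29. Over all tested genes 18.7% rose and 16.7% fell, with a median of 0.0024. Whether these 15 genes differ from all genes was not tested. SLC7A2, the second cationic amino acid carrier besides SLC7A1, had 858, 1003 and 885 counts in lactic acid libraries, against 504, 476 and 397 counts in PBS libraries. It rose 1.83-fold (23.8 ± 0.288 CPM in lactic acid, 13.0 ± 2.62 CPM in PBS; SD, n = 3; log2 fold change 0.87, SE 0.12, edgeR adjusted p = 0.00017). Per length it stayed below SLC7A1, at 3.62 ± 0.568 FPKM in lactic acid and 1.80 ± 0.529 FPKM in PBS (SD, n = 3 each). SLC7A7, a further light chain of SLC3A2 that exchanges arginine, rose 1.34-fold (edgeR adjusted p = 0.00192). SLC6A9, a glycine carrier, rose 1.35-fold (0.00956; not called on log2(FPKM + 0.1), 0.0521, or on unfiltered log2(FPKM + 1), 0.113) and SLC36A4, of the proton-coupled amino acid carrier family, rose 1.22-fold (0.000598). SLC43A1, a carrier that lets leucine pass in either direction, fell with a log2 fold change of −0.49 (edgeR adjusted p = 0.0298). That call was lost with DESeq2 (adjusted p = 0.0818), on unfiltered log2(FPKM + 1) (0.0572) and without the second PBS library or any 1 lactic acid library (0.0642 to 0.113).

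**Figure D4:**
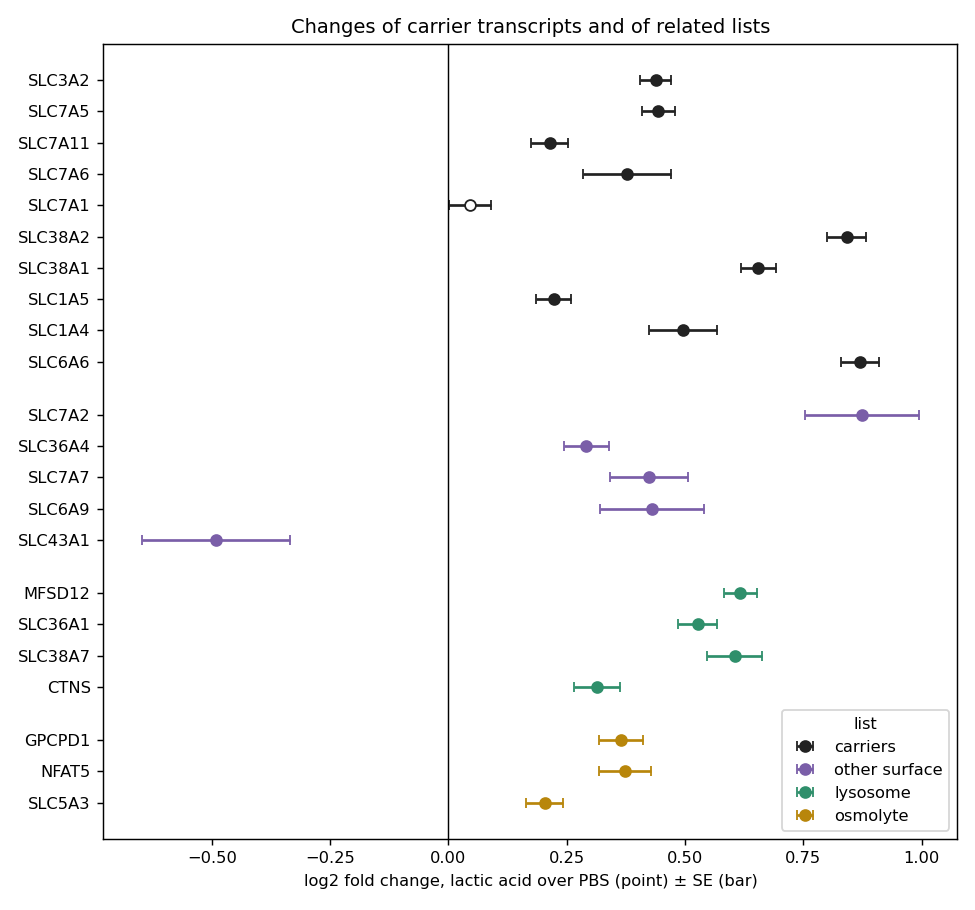
Log2 fold change of lactic acid over PBS (horizontal axis; points) with its SE (bars) from edgeR, for the 10 carriers and for named genes of the surface, lysosomal and osmolyte lists that passed the test. Filled points passed an adjusted p of 0.05; the open point is SLC7A1. SLC6A6 and SLC38A2 lead the carriers at 0.87 and 0.84, and SLC43A1 lies below 0 at −0.49.

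Amino acid and peptide carriers of the lysosome rose in 5 of 7 tested cases and fell in 0, with a median log2 fold change of 0.33. Over all tested genes 18.7% rose and 16.7% fell, with a median of 0.0024. MFSD12, which moves cysteine into lysosomes, rose 1.53-fold (87.1 ± 1.80 CPM in lactic acid, 56.8 ± 1.17 CPM in PBS; SD, n = 3; edgeR adjusted p = 2.25e-07). SLC38A7, a lysosomal glutamine carrier, rose 1.52-fold (edgeR adjusted p = 1.1e-05), SLC36A1, a proton-coupled carrier of small amino acids, 1.44-fold (2.57e-06), and CTNS, the cystine exporter lost in cystinosis, 1.24-fold (0.000398).

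Among 16 listed genes known to act on 1 or more of the carriers, 9 rose and 4 fell, with a median log2 fold change of 0.28. Over all tested genes 18.7% rose and 16.7% fell, with a median of 0.0024. ATF4 rose 1.35-fold (257 ± 2.85 CPM in lactic acid, 191 ± 6.07 CPM in PBS, SD, n = 3, edgeR adjusted p = 3.16e-06). Whether it acted on the carriers here was not tested. ARRDC3, an arrestin relative that brings ubiquitin ligases to membrane proteins, rose 1.60-fold (edgeR adjusted p = 1.02e-06). The ubiquitin ligases NEDD4 and NEDD4L, which mark carriers for removal from the surface, rose 1.25-fold (5.8e-05) and 1.42-fold (1.53e-05); the call of NEDD4L was lost on each FPKM scale (limma adjusted p from 0.0833 to 0.188). TXNIP, another arrestin relative, fell with a log2 fold change of −4.06 (edgeR adjusted p = 2.73e-06), at 4 to 6 counts in lactic acid libraries against 61 to 109 counts in PBS libraries. On log2(FPKM + 1) without a filter, a scale that shrinks the change of such low genes, it was −0.76. MYC, which is known to raise SLC7A5 and SLC1A5, fell with a log2 fold change of −0.27 (edgeR adjusted p = 0.000104). EIF2AK4, the kinase that senses uncharged transfer RNA, fell with a log2 fold change of −0.11 (0.0398), and 7 of 16 alternatives, among them DESeq2 at 0.0716, ended that call.

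Genes of other organic osmolytes were listed because SLC6A6 and SLC38A2 are known to respond to tonicity. Of 6 tested, 3 rose and 0 fell, with a median log2 fold change of 0.28. The shares over all tested genes were 18.7% for rises and 16.7% for falls, with a median of 0.0024. NFAT5, the transcription factor of the tonicity response and also among the 16 genes above, rose 1.30-fold (127 ± 4.47 CPM in lactic acid, 98.0 ± 7.74 CPM in PBS; SD, n = 3; edgeR adjusted p = 0.000264). GPCPD1, which splits glycerophosphocholine, rose 1.29-fold (edgeR adjusted p = 0.000109), and SLC5A3, the myo-inositol carrier, 1.15-fold (0.00166), a call that was lost on each FPKM scale (limma adjusted p from 0.0947 to 0.129). Each of these factors was below those of SLC6A6 and SLC38A2.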

How the data were processed

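The authors deposited whole-number counts per gene and FPKM per gene for the 6 libraries. The submitters' processing notes list HISAT2, StringTie, DESeq2 and the build GRCh38, without versions or roles. The labels call the control columns WT and the tables NS; columns were matched by library name. All 19974 Ensembl identifiers matched GENCODE release 29.

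Lactic acid was tested against PBS on the counts in edgeR 4.0.16 (R 4.3.3) by glmQLFTest, two-sided. No covariate was fitted, TMM factors were 0.989 to 1.02, and filterByExpr was used (minimum count 10, total 15). CPM use TMM-scaled library sizes; SE is the log2 fold change over the square root of F. Tested on simulated data first, edgeR recovered most changed genes, but the share of false calls was above the nominal 0.05, so calls close to the threshold, such as SLC43A1 and EIF2AK4, are less sure than their adjusted p states. No pair of libraries within a group agreed within sampling noise (chi-square 6.14 to 9.08 per degree of freedom). The labels do not say how cultures were kept apart, so p-values measure the spread between these libraries.

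Members, lists and motifs were chosen with earlier results of these data known. The text names all 10 members, overlapping genes, and up to 4 called genes per list and direction in order of p, above a mean of 1 CPM, except that some are not reported here. Alternatives were RLE factors, library totals, DESeq2 1.42.0, limma-voom (limma 3.58.1), no filter, 50 counts in 3 libraries, each library left out, the replicate number as a block, counts of overlapping genes added, and limma-trend on log2(FPKM + 1), log2(FPKM + 0.1) (FPKM of at least 1 in 3 libraries) or unfiltered log2(FPKM + 1). Ratios from counts were added after seeing the data.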

Additional observations from a re-analysis of the deposited data

How the results depend on the processing

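Over the 16 alternatives to the main test, 8 or 9 of the 10 carriers rose and 0 fell. SLC7A6 on unfiltered log2(FPKM + 1) was the 1 call lost, and the sign of SLC7A1 turned without the third lactic acid library (−0.0052; range −0.0052 to 0.074 with a library left out). That of SLC7A6OS turned in the same fit (−0.16, adjusted p = 0.103; range −0.16 to 0.25). Among other surface carriers 3 or 4 rose, and the single fall became 0 with DESeq2 and on unfiltered log2(FPKM + 1), and ranged from 0 to 1 with a library left out. In the list of regulators 8 or 9 rose, with 4 falls that ranged from 2 to 4 with a library left out; the 2 was without the first lactic acid library. Among osmolyte genes 2 or 3 rose, and 1 fell on filtered log2(FPKM + 1) and on log2(FPKM + 0.1), where AKR1B1 (named after its values were seen) was called. Lysosomal carriers gave 4 or 5 rises and 0 falls. The causes were not tested. All 5 ratios moved by less than the spread between replicates. The log2 differences of SLC7A5 and of SLC7A6 relative to SLC3A2 changed sign with a library left out (ranges −0.0079 to 0.015 and −0.14 to 0.096).

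Same-numbered libraries of the groups did not deviate together (correlations of 0.022, −0.024 and 0.031), so no pairing by number was seen. This cannot exclude that same-numbered cultures were handled together. With the replicate number as a block, 9 carriers rose and 0 fell, and 2886 genes rose and 2596 fell in all, against 2892 and 2584 without it. Over all genes, 1803 rose and 2533 fell on log2(FPKM + 1), 1798 and 2534 on log2(FPKM + 0.1), and 1618 and 2185 on unfiltered log2(FPKM + 1), where fewer genes rose than fell; with library totals 2528 rose and 2939 fell. For the 13 surface carriers with counts too low to test, a change was not detectable at this depth.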
